A study of Mus musculus with 4 samples.

Results

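The 10 genes described here encode the killing machinery that natural killer (NK) cells, group 1 innate lymphoid cells and CD8 T cells carry or display. They are the granzymes Gzma, Gzmb, Gzmc, Gzmk and Gzmm, perforin (Prf1), the granule proteins Nkg7 and Srgn, and the death ligands Fasl and Tnfsf10. They were taken by symbol and are 10 of the 32285 genes in the count matrices. Their levels were read in cells gated by marker transcripts, none of which is one of the 10 genes. The study profiled liver cells of mice by droplet single-cell RNA sequencing in 2 Cyr61 KO and 2 Control libraries. All 4 libraries came from male mice of 24 weeks, of the strain labelled Cyr61fl/fl, after 12 weeks on a NASH diet, a feeding scheme that produces steatohepatitis. Cyr61, now named Ccn1, encodes a matricellular protein. The labels used here do not say in which cells the floxed gene was deleted, by what Cre, or whether a library is 1 animal or a pool. The p-values therefore rest on the spread between these libraries, pooled in part over genes, which may be technical.

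As background, cytotoxic lymphocytes store granzymes with perforin in secretory granules. Perforin opens the membrane of a bound target cell, and granzymes are serine proteases that enter the target and cleave proteins there. Gzma cuts after basic residues and Gzmb after aspartate, which lets Gzmb activate caspases. Gzmk shares the tryptic type of cleavage with Gzma, and Gzmm and Gzmc have narrower use among cell types. Srgn (serglycin) is the proteoglycan core on which granule proteins are packed, and it is also made by many other blood cells. Nkg7 is a granule membrane protein of killer cells. Fasl binds Fas and Tnfsf10 (TRAIL) binds Tnfrsf10b on target cells, and liver ILC1 are known for surface TRAIL.

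The targeted gene went with the labels. Ccn1 had 0 and 1 UMIs (unique molecular identifiers, each marking 1 captured transcript) over all kept cells of KO 1 and KO 2, against 170 and 142 UMIs in Control 1 and Control 2. Cells with at least 3 UMIs of 8 fibroblast and mesothelial genes numbered 0 and 0 in KO 1 and KO 2, against 286 and 61 in Control 1 and Control 2, so a loss of Ccn1 within cells and a lack of such cells cannot be told apart. The 4 libraries held 4852 to 7253 barcodes and 8290677 to 20537236 UMIs, with 4535 to 6742 cells kept, and Control 1 was the shallowest, with a median of 1203 UMIs per kept cell against 1848.5 to 2814 in the other 3. Pairs of libraries shared 6 to 22 barcodes, at most 0.304% of the smaller library. The conventional NK gate (Ncr1, Il2rb, Txk or Xcl1 with Tyrobp or Fcer1g, no T cell transcript, and more Eomes, Itga2, S1pr5, Cma1, Itgam, Zeb2 and Irf8 than ILC1 markers) held 206 and 206 cells in KO 1 and KO 2, against 45 and 74 in Control 1 and Control 2. The ILC1 gate (the same with more Cxcr6, Itga1, Il7r, Cd200r1, Inpp4b and Ltb) held 110 and 122 KO cells, against 111 and 141 Control cells. The CD8 effector gate (T cell and Cd8 transcripts, with more Ccl5, Pdcd1, Tox, Cxcr6 and Id2 than markers of naive T cells such as Ccr7 and Lef1; the reverse for naive-like CD8 T cells) held 543 and 603 KO cells, against 453 and 909 Control cells. The NKT-like gate (T cell transcripts without Cd8, with Zbtb16 or Trav11 and with Cxcr6, Il2rb or Xcl1) held 29 and 64 KO cells, against 9 and 23 Control cells. The plasmacytoid dendritic cell (pDC) gate (Siglech with a further UMI of Siglech, Ccr9, Cox6a2, Klk1 or Pacsin1) held 13 and 20 KO cells, against 53 and 46 Control cells. Genes that no gate used went with the gates' names: Klrb1c, which encodes NK1.1, was at 286 to 742 UMIs per 1000000 UMIs of the gate (CPM) in conventional NK cells and 228 to 639 CPM in ILC1, against 5.28 to 32.7 CPM in CD8 effector cells, and the NK receptor gene Klra8 was at 39.9 to 108 CPM in ILC1, against 308 to 724 CPM in conventional NK cells.

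Some gated cells did not follow their gate's name. In Control 1, 2 of the 45 conventional NK cells held 129 and 195 UMIs of the 8 fibroblast and mesothelial genes (among them Dcn, Col1a1, Col3a1 and Msln); no other cell of that gate held more than 1. Those 2 cells made up 30.2% of the gate's UMIs in Control 1 and all 14 of its Ccn1 UMIs, and of the 10 genes they held 5 Nkg7 and 3 Srgn UMIs. Without them the Control 1 conventional NK levels were 7400 CPM for Gzma in place of 5167, 410 CPM for Gzmb in place of 286 and 489 CPM for Prf1 in place of 342. The Control 1 conventional NK levels of the other tested genes without them were 2556 CPM for Nkg7 in place of 1840, 1231 CPM for Srgn in place of 892 and 47.3 CPM for Fasl in place of 33.1. The main conventional NK values below are given with and without them. In Control 2, the myeloid gene Lyz2 was at 460 CPM in the conventional NK gate, against 23.8 to 44.1 CPM in the other 3 libraries, with 42 and 40 of its 92 UMIs in 2 cells. The CD8 effector gate of Control 2 held 1413 CPM of 3 neutrophil genes, against 9.07 to 65.2 CPM elsewhere. The ILC1 gates held 140 to 186 CPM of the conventional NK markers, against 1146 to 2907 CPM in the conventional NK gates, where Control 1 was at 1146 CPM, or 1515 CPM without the 2 cells.

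The genes lie on 6 chromosomes. In GENCODE M21 (GRCm38) Gzma (chr13:113093825-113100981) and Gzmk (chr13:113171608-113225908) are neighbours on chromosome 13, 70.6 kb apart on the minus strand. Gzmb (chr14:56258838-56262260) and Gzmc (chr14:56231441-56234656) lie 24.2 kb apart on the minus strand of chromosome 14, and in each pair no other protein-coding gene lies between. The pairs are shown because, as given below, neighbours had different patterns over the cells: Gzma was highest in conventional NK cells and Gzmk in CD8 effector cells, Gzmb highest in conventional NK cells and Gzmc in ILC1. The 250 bases before the annotated start of the 3 granzymes of the innate gates and of perforin, from RefSeq (GRCm38.p6), are printed 5′ to 3′ on the strand of the gene, with matches to the searched motifs in capitals. They are chr13:113100982-113101231 (minus strand) for Gzma, chr14:56262335-56262584 (minus strand) for Gzmb, chr14:56234658-56234907 (minus strand) for Gzmc and chr10:61297586-61297835 (plus strand) for Prf1.
Gzma: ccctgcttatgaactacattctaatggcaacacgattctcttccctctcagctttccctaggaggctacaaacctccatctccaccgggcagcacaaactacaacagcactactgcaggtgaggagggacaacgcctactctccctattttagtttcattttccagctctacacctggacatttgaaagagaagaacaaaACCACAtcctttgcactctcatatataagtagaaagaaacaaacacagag
Gzmb: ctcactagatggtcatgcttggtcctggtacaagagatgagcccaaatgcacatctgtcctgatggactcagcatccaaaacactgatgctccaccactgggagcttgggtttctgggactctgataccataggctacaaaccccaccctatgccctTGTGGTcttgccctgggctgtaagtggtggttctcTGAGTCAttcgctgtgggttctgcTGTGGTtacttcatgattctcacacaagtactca
Gzmc: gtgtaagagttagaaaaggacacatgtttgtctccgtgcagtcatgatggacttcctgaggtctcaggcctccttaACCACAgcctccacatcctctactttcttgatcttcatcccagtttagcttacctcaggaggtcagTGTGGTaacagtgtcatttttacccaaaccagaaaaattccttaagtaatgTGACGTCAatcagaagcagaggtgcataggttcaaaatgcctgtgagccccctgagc
Prf1: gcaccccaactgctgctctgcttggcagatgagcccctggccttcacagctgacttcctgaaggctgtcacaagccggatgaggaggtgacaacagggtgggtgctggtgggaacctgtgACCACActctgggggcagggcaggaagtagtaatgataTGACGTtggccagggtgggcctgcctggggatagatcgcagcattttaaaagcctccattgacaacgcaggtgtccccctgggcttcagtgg

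The motifs searched, on both strands, were RUNX (TGTGGT), AP-1 (TGANTCA), the core of the cAMP response element (TGACGT), T-box (AGGTGTGA), ETS (ACTTCCG) and the STAT site (TTCNNNGAA). RUNX matches were in the windows of all 4 genes above, with 1 in Gzma, 2 in Gzmb, 2 in Gzmc and 1 in Prf1, and in 7 of the 12 promoters listed for the 10 genes, against 14.0% of all 32851 mouse promoters of that length. Gzmb also had the AP-1 match, which 6.75% of all promoters have, and Gzmc, Prf1 and Srgn the cAMP response element core, which 6.47% have. The 2 matches of that core in Gzmc overlap on opposite strands. The T-box letters were found in Nkg7 alone among the 10 genes and in 1.12% of all promoters, the STAT letters in Gzmm and Nkg7 and in 7.02% of all promoters, and the ETS letters in none of the 12 windows and in 4.92% of all. A match is a description of the letters in these windows only.

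Gzma had the highest level of the 10 genes in conventional NK cells, counted as UMIs and so not weighted by length. It had 8751 and 8360 CPM in conventional NK cells of KO 1 and KO 2, against 5167 and 6135 CPM in Control 1 and Control 2. Its level in CD8 effector cells was 133 and 815 CPM in the KO libraries, against 227 and 248.5 CPM in the Control libraries. In ILC1 it was 406 and 381 CPM in the KO libraries, against 169 and 188 CPM in Control. Every conventional NK library lay above every library of the other gates, while the ranges of CD8 effector cells, ILC1 and NKT-like cells overlapped. B cells, which should lack the gene, had 21.7 and 8.71 CPM in the KO libraries, against 8.85 and 5.09 CPM in Control. Whether free RNA, doublets or wrongly gated cells gave these UMIs was not tested.

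Prf1, Gzmb and Nkg7 followed the same order at the top. Prf1 had 784 and 731 CPM in conventional NK cells of the KO libraries, against 342 and 545 CPM in those of the Control libraries, and 52.5 to 116 CPM over the 4 libraries in ILC1. Gzmb had 690 and 783 CPM in KO conventional NK cells, against 286 and 550 CPM in Control, and 61.1 to 277 CPM in ILC1 and 55.3 to 169 CPM in CD8 effector cells. Nkg7 had 2470 and 2721 CPM in KO conventional NK cells, against 1840 and 2578 CPM in Control, and 1272 to 1560 CPM in ILC1. For each of these 3 genes the conventional NK range lay above that of the next gate, and the next gates overlapped each other.

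Gzmk and Gzmm marked CD8 effector cells. Gzmk had 31.7 and 92.1 CPM there in the KO libraries, against 139 and 97.8 CPM in the Control libraries, at most 9.99 CPM in conventional NK cells, and 0 UMIs in 484 ILC1, 125 NKT-like cells and all pDC. Gzmm had 92.0 and 83.4 CPM in CD8 effector cells of KO, against 66.2 and 74.6 CPM in Control, and at most 23.8 CPM in any library of conventional NK cells, ILC1 or NKT-like cells. The CD8 effector range stood apart from the next gate for both genes.

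Tnfsf10 and Gzmc were highest in ILC1. Tnfsf10 had 120 and 99.6 CPM in ILC1 of the KO libraries, against 93.4 and 188 CPM in the Control libraries, above the 28.3 to 70.8 CPM of CD8 effector cells and the 0 to 15.0 CPM of conventional NK cells. Gzmc had 24.8 and 24.3 CPM in ILC1 of KO, against 175 and 42.3 CPM in Control. Outside ILC1 it reached 108 CPM in NKT-like cells of Control 2, from 10 UMIs, and at most 4.02 CPM in any library of the CD8 effector and conventional NK gates. The ILC1 and NKT-like ranges of Gzmc overlapped. Gzmd, Gzme, Gzmf, Gzmg and Gzmn, the near copies beside Gzmc, had 0 UMIs in all kept cells. How reads that match several of these genes were treated is not given in the sources used here, so the level of Gzmc is uncertain to that extent.

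Srgn and Fasl were spread over the gates. Srgn ran from 1233 to 1804 CPM in NKT-like cells, 1275 to 1494 CPM in ILC1, 1011 to 1834 CPM in pDC and 1122 to 1279 CPM in B cells, with neighbours in that order overlapping. It was at 892 to 1024 CPM in conventional NK cells, or 1231 CPM in Control 1 without the 2 cells, and at 761 to 891 CPM in CD8 effector cells. Fasl ran from 70.5 to 86.9 CPM in ILC1, 33.1 to 96.2 CPM in conventional NK cells, 49.8 to 85.7 CPM in NKT-like cells and 33.7 to 57.8 CPM in CD8 effector cells, and each overlapped the next. In pDC, Srgn alone of the 10 genes had more than 4 UMIs in a library: Gzmb, Gzmc, Gzmk, Gzmm, Prf1 and Fasl had 0 UMIs, and Gzma, Nkg7 and Tnfsf10 had 0 to 4 UMIs a library.

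**Figure D1:**
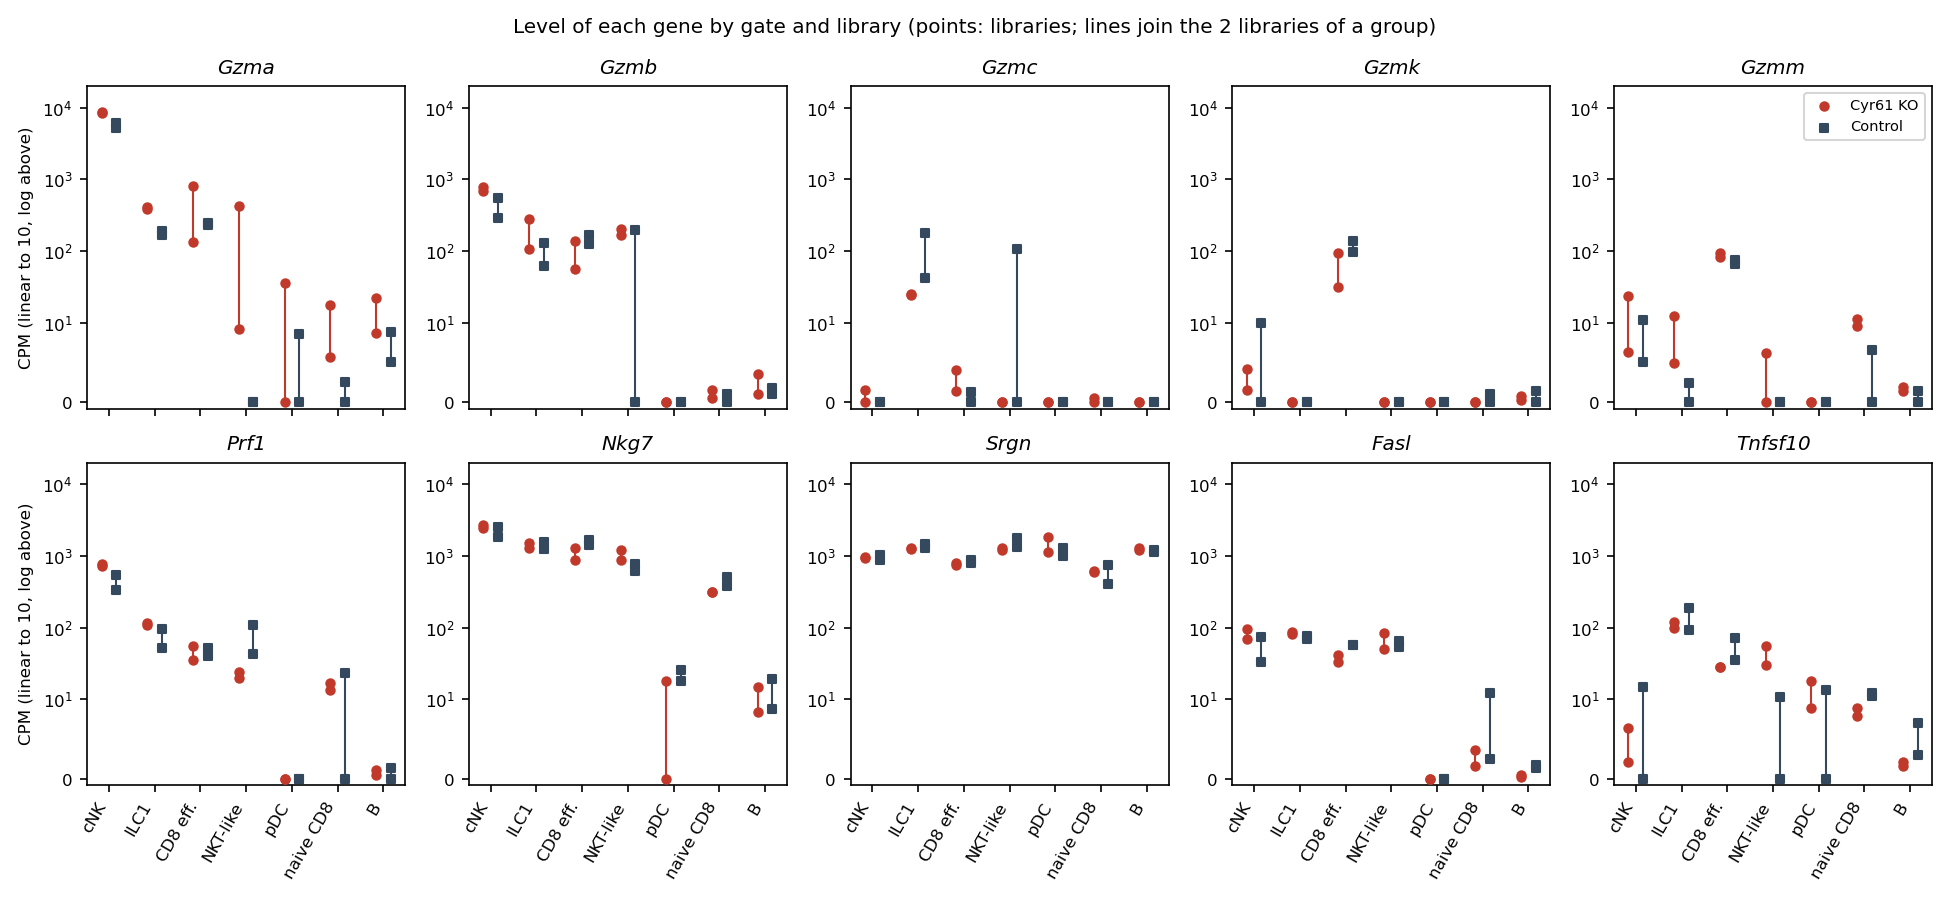
Level of each of the 10 genes (CPM, linear to 10 and log above) in each gate, 1 point per library, KO points left of Control points. Gzma, Gzmb, Prf1 and Nkg7 were highest in conventional NK cells (cNK), Gzmk and Gzmm in CD8 effector cells, and Tnfsf10 in ILC1.

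Tests between gates used both gates of all 4 libraries with the library as a block. The filter on low counts also kept genes that only a single gate carried. A gene near 0 in the other gate could then pass in a single direction only. ILC1 against conventional NK cells had 7 of the 10 genes above the filter on low counts: 4 were lower in ILC1, where 4.06% of the 4309 genes tested were lower, and 2 were higher, where 5.27% were higher (9.33% either way). Gzma was 25.2-fold lower in ILC1 than in conventional NK cells (log2 difference -4.65 ± 0.11 SE, adjusted p = 2.3e-16 in edgeR's quasi-likelihood test), Prf1 6.27-fold lower, Gzmb 4.23-fold lower and Nkg7 1.69-fold lower. Tnfsf10 was 19.7-fold higher in ILC1 (4.30 ± 0.37, adjusted p = 8.7e-08) and Srgn 1.39-fold higher (0.47 ± 0.10, adjusted p = 0.0027). Fasl differed by 0.14 ± 0.23 on the log2 scale and did not pass (adjusted p = 0.81). Without the 2 Control 1 cells with fibroblast and mesothelial transcripts, 6 of the genes passed too, with Gzma at -4.72 on the log2 scale. The median over the 7 genes was -0.76 on the log2 scale, against 0.01 over all genes tested.

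Conventional NK cells against CD8 effector cells had 9 genes tested, 4 higher and 3 lower in conventional NK cells, where 9.93% of 6557 genes were higher and 10.3% lower (20.3% either way). Gzma was 20.5-fold higher in conventional NK cells (4.36 ± 0.27, adjusted p = 6.5e-12 in edgeR's test), Prf1 11.2-fold, Gzmb 4.52-fold and Nkg7 1.57-fold higher. Gzmk was 24.4-fold lower (-4.61 ± 0.40, adjusted p = 2.8e-09), Gzmm 7.30-fold lower and Tnfsf10 7.28-fold lower. Few UMIs stood behind the conventional NK side of these: 5 for Gzmk and 20 for Gzmm, against 764 and 716 in CD8 effector cells, and without KO 2 the log2 difference of Gzmk was -3.77 and that of Gzmm -3.93. Per UMI of the gate the pooled counts were 24.0 times as high in CD8 effector cells for Gzmk (exact 95% interval 10.2 to 74.0) and 5.62 times for Gzmm (3.61 to 9.25), for counting error only. Nkg7 did not pass without KO 1 (0.47, adjusted p = 0.079) or with strict gates (0.28, adjusted p = 0.17). Fasl (0.52 ± 0.23, adjusted p = 0.13) and Srgn (-0.00 ± 0.12) did not pass. Fasl passed without the Control 1 cells that held fibroblast and mesothelial transcripts (0.55, adjusted p = 0.041 in edgeR's test) and without Control 1 as a whole (0.65, adjusted p = 0.023). In this pair of gates those cells were the 2 named above and 2 CD8 effector cells, which held 1.62% of the UMIs of their gate in Control 1. The median over the 9 genes was 0.52 on the log2 scale, against 0.00 over all genes.

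CD8 effector cells against naive-like CD8 T cells had 9 genes tested and all 9 higher in the effector cells, where 8.75% of 8436 genes were higher and 6.51% lower (15.3% either way). Gzmk passed (adjusted p = 6.3e-20 in edgeR's test) with 764 UMIs in effector cells, against 2 in naive-like cells, a ratio of 222 per UMI of the gate, with an exact 95% interval of 61.3 to 1838 for counting error. Gzmb was 96.8-fold higher on 1052 UMIs in effector cells, against 5 in naive-like cells, a pooled ratio of 122 with an exact 95% interval of 52.3 to 378. With so few UMIs in naive-like cells, Gzmk and Gzmb were kept by the filter through the effector gate and could only come out higher. The count of 9 and the median over the 9 genes include them. Gzma was 39.9-fold higher (5.32 on the log2 scale), but 6.82 without KO 1, whose naive-like cells held 24 of the gate's 39 Gzma UMIs, and 4.29 without KO 2. Fasl was 14.7-fold, Gzmm 8.44-fold and Tnfsf10 4.07-fold higher. Prf1 was 2.46-fold and Srgn 1.29-fold higher, and Nkg7 was higher by 1.63 ± 0.10 on the log2 scale. Srgn did not pass without Control 2 (0.19, adjusted p = 0.24) or by DESeq2 (adjusted p = 0.12). The median over the 9 genes was 3.08, against 0.00 over all genes.

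NKT-like cells against CD8 effector cells had 9 genes tested, with 0 higher, where 1.92% of 5780 genes were higher, and 4 lower, where 3.37% were lower (5.29% either way). Gzma was 5.20-fold lower in NKT-like cells (-2.38 ± 0.35, adjusted p = 1.8e-09 in edgeR's test), and Nkg7 1.83-fold lower (adjusted p = 0.00070). The libraries disagreed for Gzma: in KO 1 it was at 428 CPM in NKT-like cells, against 133 CPM in CD8 effector cells. In KO 2 and both Control libraries it was lower in NKT-like cells. The test pools its spread in part over genes, so this p does not measure that disagreement. The Gzma difference was -0.51 without KO 2 (adjusted p = 0.81), the library with most Gzma in CD8 effector cells, and -6.87 without KO 1, whose NKT-like cells held 43 of the gate's 46 Gzma UMIs. It did not pass by DESeq2 (adjusted p = 0.079), without the library block (-1.98, adjusted p = 0.17) or with doublets kept (-2.11, adjusted p = 0.055), and Nkg7 did not pass without KO 2 (adjusted p = 0.052), without Control 2 (adjusted p = 0.11) or by DESeq2 (adjusted p = 0.13). Gzmm had 2 UMIs in 125 NKT-like cells, against 716 in CD8 effector cells, 21.6 times as many there per UMI of the gate, with an exact 95% interval of 5.96 to 179 for counting error. Gzmk, at 0 UMIs there, was at least 15.4-fold lower, taking 3 counts over the gate (5.57 CPM) as the floor against 85.7 CPM in CD8 effector cells. By the same floor (2.40 CPM over 484 cells) ILC1 had at least 35.7-fold less Gzmk than CD8 effector cells, a pair with no fit. Gzmb (0.37 ± 0.28, adjusted p = 0.72), Tnfsf10, Fasl, Prf1 and Srgn did not pass. In pDC against B cells 1 gene of the 10 was tested, and Srgn differed by -0.16 ± 0.12 (adjusted p = 0.28), where 43.9% of 4768 genes passed either way. Without KO 1, whose pDC gate held 13 cells, it was -0.32 (adjusted p = 0.0066).

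**Figure D2:**
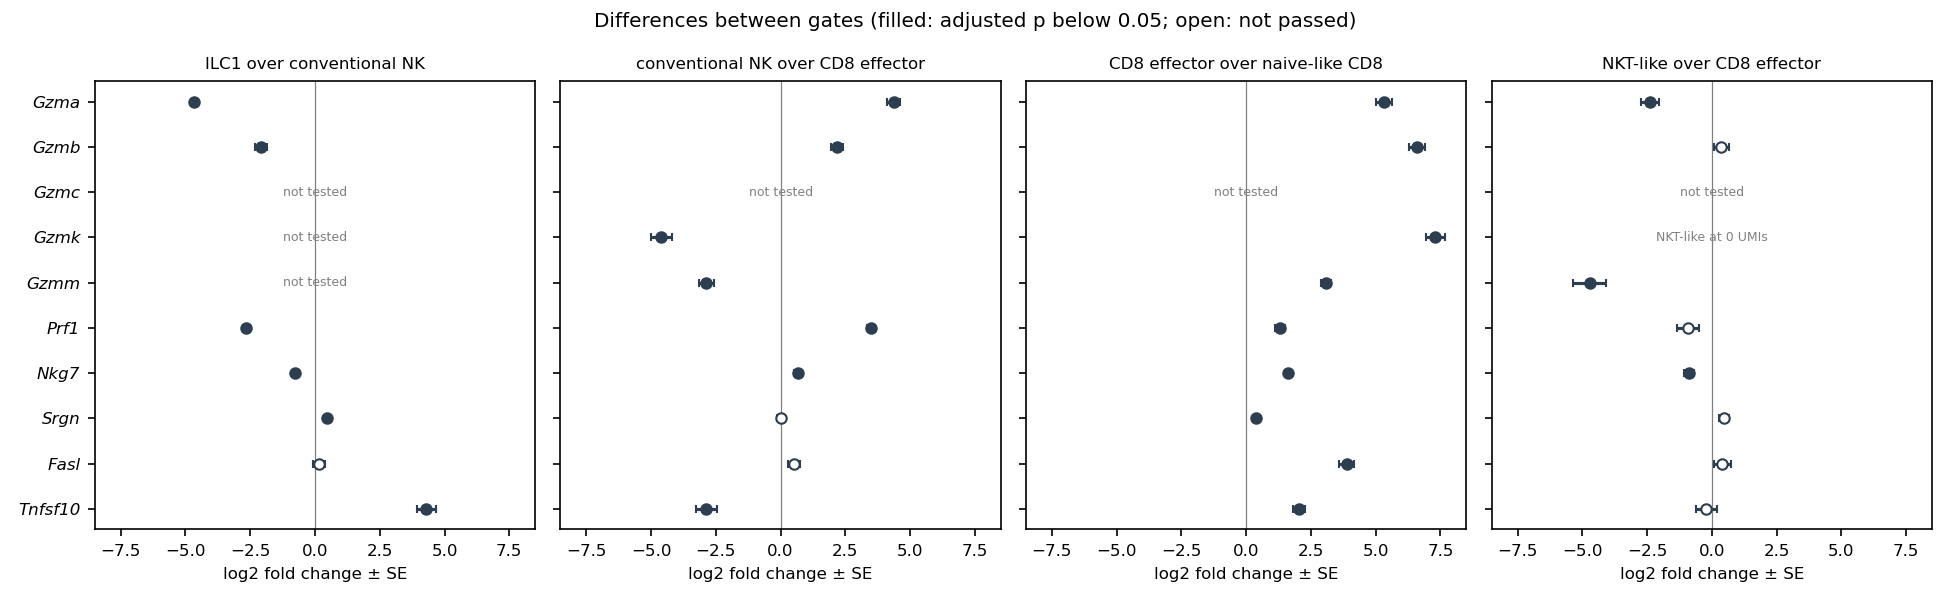
Log2 difference between gates for each gene tested, with bars of 1 SE, the gate named before "over" on top of the difference. Against conventional NK cells, ILC1 had lower Gzma (-4.65) and higher Tnfsf10 (4.30), and all 9 genes tested were higher in CD8 effector than in naive-like CD8 cells. Among the 9, Gzmk and Gzmb were kept by the filter on low counts through the effector gate.

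The 5 granzymes divided the granzyme transcripts of each gate differently. UMIs count each captured transcript once, so shares of them are not weighted by length, although capture may differ between genes. In conventional NK cells Gzma was 92.6% and 91.2% of granzyme UMIs in KO 1 and KO 2 (of 4520 and 5772), against 94.6% and 91.6% in Control 1 and Control 2 (of 496 and 1341). In ILC1 it was 73.7% and 55.5% in the KO libraries (of 133 and 283 UMIs), against 35.8% and 64.0% in the Control libraries (of 81 and 125). Exact 95% intervals, for counting error only, reached at most 2.38 points from these shares in conventional NK cells, 11.5 points in ILC1 and 4.12 points in CD8 effector cells. Gzmc, with no overlap between the groups in ILC1, was 4.51% (1.67% to 9.56%) and 3.53% (1.71% to 6.40%) of granzyme UMIs in KO, against 37.0% (26.6% to 48.5%) and 14.4% (8.76% to 21.8%) in Control, from 6 and 10 KO UMIs against 30 and 18 Control UMIs.

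In CD8 effector cells no granzyme took nearly all. Gzma made up 42.0% and 72.1% of granzyme UMIs there in KO, against 37.8% and 45.5% in Control. The share of Gzmk was 10.0% and 8.15% in KO, against 23.1% and 17.9% in Control, and that of Gzmb was 17.5% and 12.2% in KO, against 28.1% and 22.7% in Control, so both shares were lower in each KO library than in each Control library. In CPM, by contrast, the groups overlapped for Gzmb, at the levels given further below. Gzmm took 29.1% and 7.38% in KO, against 11.01% and 13.6% in Control, which overlapped. Shares of 1 total move together, and KO 2 alone held the high Gzma, with 2248 UMIs against 264 in KO 1.

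**Figure D3:**
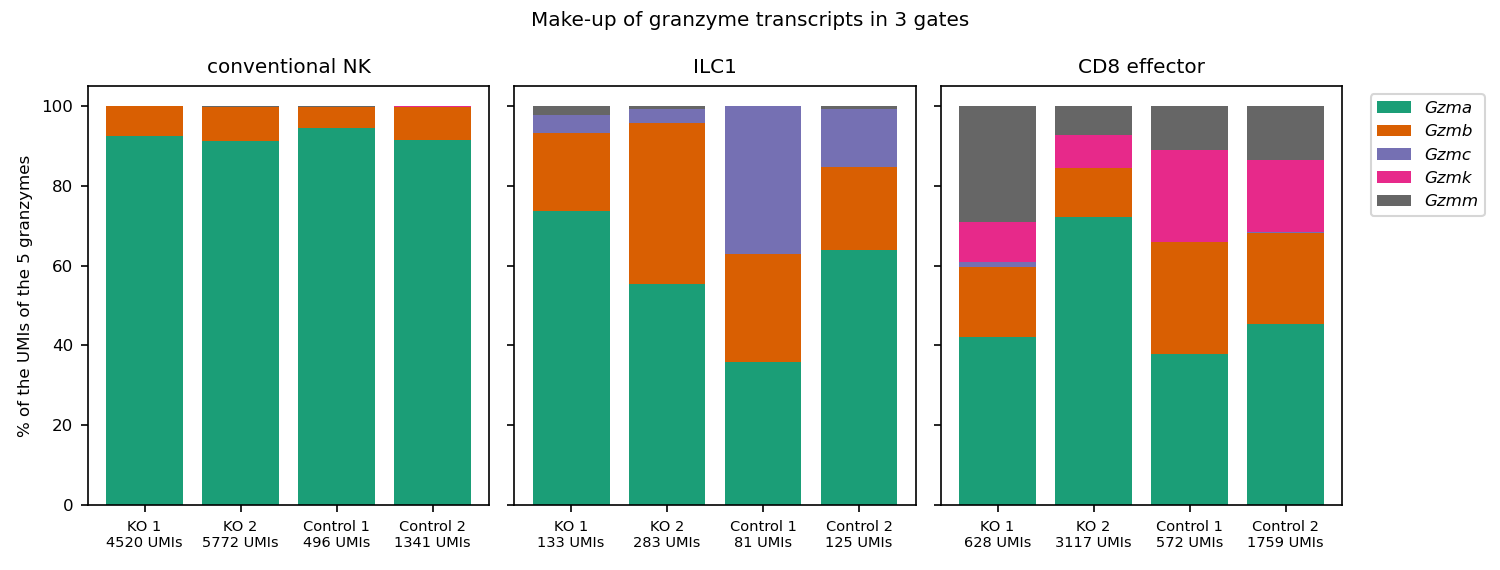
Percent of the 5-granzyme UMIs from each granzyme, 1 bar per library and gate, KO bars left of Control bars. Gzma filled 91.2% to 94.6% of the conventional NK bars, and in ILC1 Gzmc was 3.53% to 4.51% in KO, against 14.4% to 37.0% in Control.

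Over all 10 genes, the transcripts made up 1.38% and 1.36% of the UMIs of conventional NK cells in KO, against 0.857% and 1.09% in Control. Without the 2 Control 1 cells with fibroblast and mesothelial transcripts the Control 1 share was 1.215%, above that of Control 2. In ILC1 they were 0.344% and 0.378% in KO, against 0.346% and 0.350% in Control, and in CD8 effector cells 0.210% and 0.331% in KO, against 0.305% and 0.321% in Control.

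Detection of several of the genes within the same cells was counted too, with no test. Unless a library or group is named, the counts pool the 4 libraries, and depth was not evened. Of the 531 conventional NK cells 467 had a Gzma UMI, as did 97.5% of the 282 with a Gzmb UMI. Prf1 was found in 68.7% of the 467 cells with Gzma, against 28.1% of those without. In CD8 effector cells 50.3% of the 356 cells with Gzma had Gzmb, against 11.8% of those without, and 39.6% had Gzmk, against 15.2%. Those pooled CD8 effector shares hid a spread between libraries: of the cells with Gzma, 28.1% in KO 1 and 57.7% in KO 2 had Gzmb, against 60% in Control 1 and 50.8% in Control 2, and 15.6% and 53.1% in KO 1 and KO 2 had Gzmk, against 37.5% and 38.5% in Control. In conventional NK cells Prf1 was found in 64.1% and 78.8% of cells with Gzma in KO, against 45.2% and 61.1% in Control. Among those without Gzma it was found in 18.2% and 62.5% in KO, against 14.3% and 35% in Control. The pooled contrast for Prf1 thus also mixes libraries. In ILC1 36.1% of the 61 cells with Gzma had Gzmb, against 13.2% of those without, and 13 of the 25 cells with Gzmc had Gzmb. Deeper cells show more of every gene, and the part of depth in these shares was not tested.

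Gzma in ILC1 came from few cells. It was found in 18 of 110 and 25 of 122 ILC1 of KO 1 and KO 2, against 3 of 111 and 15 of 141 of Control 1 and Control 2, with depth not evened. In Control 1, 1 of the 3 cells held 62.1% of the 29 UMIs. Gzmb in KO 2 was spread wider, over 44 of 122 ILC1, and the 10% with most held 54.4% of its UMIs. In conventional NK cells the top 10% held 35.3% and 27.3% of Gzma UMIs in KO, against 51.8% and 39.9% in Control. Nkg7 was spread alike in ILC1, with 31.0% and 32.9% in the top 10% in KO, against 33.0% and 31.9% in Control.

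Shares of cells were compared after thinning each cell to 1000 UMIs and leaving out shallower cells (in KO 1, KO 2, Control 1 and Control 2 these were 31, 12, 15 and 7 conventional NK cells, 18, 0, 26 and 15 ILC1, and 18, 19, 60 and 79 CD8 effector cells). Gzma was then found in 88.0% (95% exact binomial interval 82.2% to 92.4%) and 93.3% (88.8% to 96.4%) of conventional NK cells in KO 1 and KO 2, against 73.3% (54.1% to 87.7%) and 71.6% (59.3% to 82.0%) in Control 1 and Control 2. Unthinned, these shares were 89.3% and 96.1% in KO, against 68.9% and 73.0% in Control. Leaving out the 2 Control 1 cells with fibroblast and mesothelial transcripts, the thinned Control 1 share was 78.6%. In B cells, thinned alike, it was 1.95% and 0.562% in KO, against 0.766% and 0.541% in Control (unthinned 4.28% and 2.40% in KO, against 1.27% and 1.18% in Control). Median depths before thinning were 1908 and 2678 UMIs in KO conventional NK cells, against 1487 and 2312.5 in Control ones, and 1805.5 and 2425 UMIs in KO B cells, against 1217 and 2181.5 in Control ones. Intervals cover counting error only.

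Gzmb was found in 39.4% (32.1% to 47.1%) and 44.3% (37.2% to 51.6%) of thinned conventional NK cells in KO, against 23.3% (9.93% to 42.3%) and 31.3% (20.6% to 43.8%) in Control. Without the 2 Control 1 cells the thinned Control 1 share was 25% for Gzmb and 25% for Prf1. Unthinned, it was 50.5% and 64.1% in KO, against 24.4% and 47.3% in Control. Prf1 was found in 42.9% (35.4% to 50.5%) and 51.0% (43.8% to 58.3%) in KO, against 23.3% (9.93% to 42.3%) and 35.8% (24.5% to 48.5%) in Control, or unthinned 59.2% and 78.2% in KO, against 35.6% and 54.1% in Control. Thinned B cells had at most 0.326% with Gzmb and 0.130% with Prf1. In ILC1 Gzma was found in 14.1% (7.74% to 23.0%) and 11.5% (6.42% to 18.5%) of thinned cells in KO, against 2.35% (0.286% to 8.24%) and 7.14% (3.32% to 13.1%) in Control, or unthinned 16.4% and 20.5% in KO, against 2.70% and 10.6% in Control. The interval of Control 1 includes the share of its B cells. In each of these 4 shares both KO libraries lay above both Control libraries, with 2 libraries a group, at which an exact permutation test cannot give a two-sided p below 0.33. How many of all genes did so was not counted. Tnfsf10 was found in 7.61% (3.11% to 15.1%) and 8.20% (4.001% to 14.6%) of thinned ILC1 in KO, against 7.06% (2.63% to 14.7%) and 20.6% (13.9% to 28.8%) in Control, or unthinned 22.7% and 24.6% in KO, against 11.7% and 35.5% in Control. Gzmk was found in 3.43% (2.04% to 5.36%) and 9.76% (7.48% to 12.5%) of thinned CD8 effector cells in KO, against 11.7% (8.70% to 15.3%) and 10.5% (8.48% to 12.8%) in Control, or unthinned 8.47% and 20.7% in KO, against 21.4% and 22.1% in Control. The groups overlapped for Tnfsf10 and not for Gzmk.

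**Figure D4:**
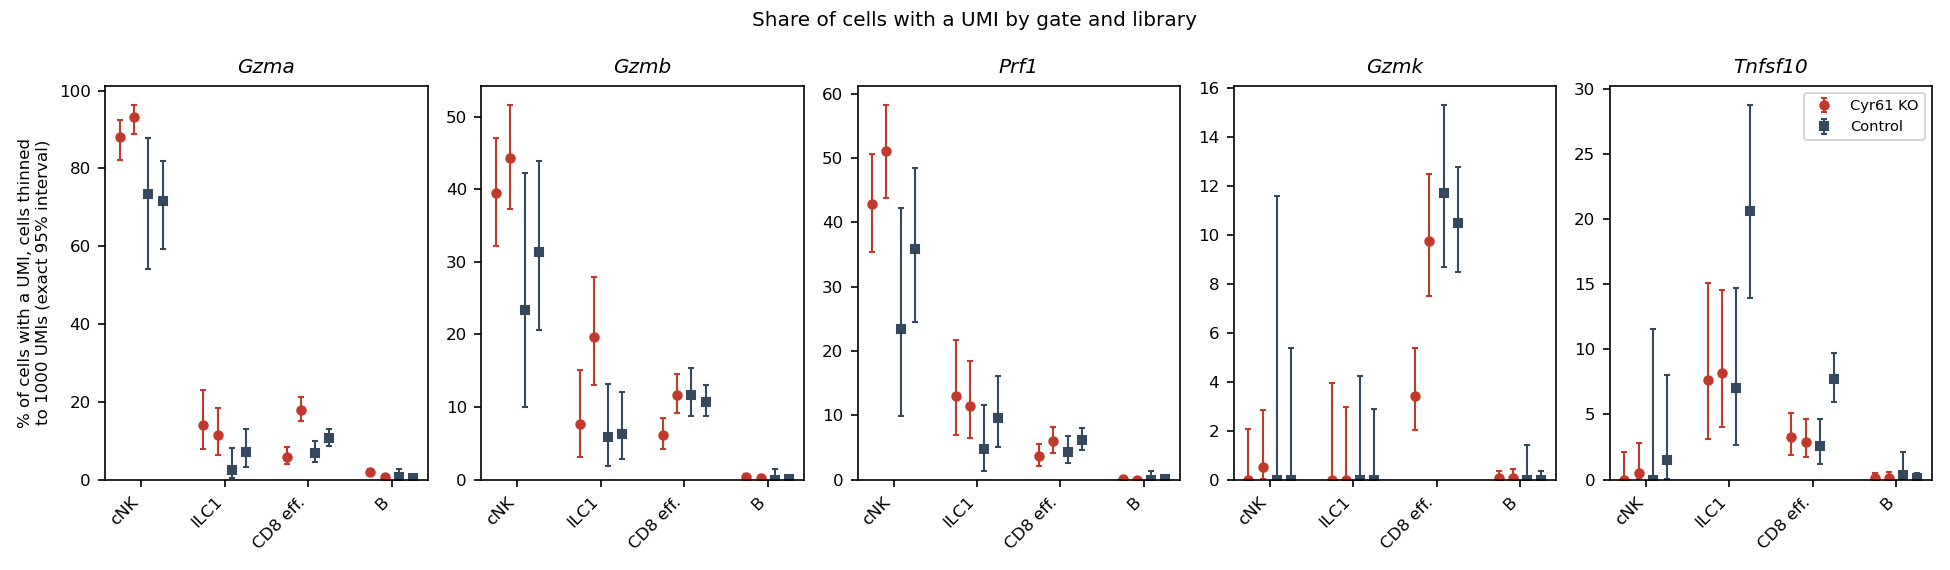
Percent of cells with at least 1 UMI at 1000 UMIs per cell, with exact 95% binomial intervals, 1 point per library, KO points left of Control points. Gzma was found in 88.0% and 93.3% of KO conventional NK cells, against 73.3% and 71.6% of Control ones.

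The question that the labels pose for these genes is whether their transcript level per gate differs between Cyr61 KO and Control. In conventional NK cells 6 genes passed the filter (Gzmc, Gzmk, Gzmm and Tnfsf10 did not). Of the 6, 0 passed edgeR's test and 0 by DESeq2, where 0.0428% of the 4672 genes tested passed in edgeR. At an unadjusted p below 0.05 in edgeR's test were 0 of the 6, beside 440 of the 4672. Gzma differed by 0.42 ± 0.19 on the log2 scale (adjusted p = 0.53), Gzmb by 0.57 ± 0.28 (adjusted p = 0.54) and Prf1 by 0.55 ± 0.25 (adjusted p = 0.52). In CPM all 3 had both KO libraries above both Control libraries. As for all statements of overlap between the groups here, the share of all genes with such a separation was not counted. Without the 2 Control 1 cells that carried fibroblast and mesothelial transcripts the differences were 0.19 for Gzma, 0.40 for Gzmb and 0.37 for Prf1, with adjusted p of 0.83, 0.65 and 0.67 in edgeR's test. Where 1 library is left out of a KO over Control fit, its group is a single library, which is taken to vary like the pair of the other group. The spread then comes from that pair and in part from other genes, so sizes alone are given for such fits by gene. Leaving out Control 2, whose gate held the Lyz2 transcripts, Gzmb differed by 1.23 and Prf1 by 1.015 from Control 1, the library with the 2 cells. Leaving out Control 1 they differed by 0.25 and 0.30. Leaving out cells with a Lyz2 UMI, Gzmb differed by 0.56 (adjusted p = 0.57) and Prf1 by 0.47 (adjusted p = 0.63). Nkg7 (0.04 ± 0.22), Srgn (-0.19 ± 0.21) and Fasl (0.26 ± 0.42) did not pass, and without the 2 cells they were at -0.14, -0.37 and 0.11. The median of the 6 genes was 0.34, against 0.00 over all genes tested.

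Other values of the conventional NK gate moved with the groups. A list of immediate early and heat shock genes (Fos, Jun, Junb, Hspa1a, Hspa1b and Dusp1) summed to 9826 and 10253 CPM in the KO libraries, against 7458 and 7754 CPM in Control, or 8536 CPM in Control 1 without the 2 cells. The 7 conventional NK gate markers summed to 2767 and 2907 CPM in the KO libraries, against 1146 and 1924 CPM in Control, or 1515 CPM in Control 1 without the 2 cells, and their part in the granzyme differences was not tested. The gate held 3.06% and 4.25% of kept cells in KO, against 0.992% and 1.11% in Control.

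In ILC1 8 genes passed the filter (Gzmk and Gzmm did not). Of the 8, 0 passed edgeR's test and 0 by DESeq2, where 0.333% of 4503 genes passed in edgeR. At an unadjusted p below 0.05 in edgeR's test were 4 of the 8, beside 360 of the 4503. Gzma was 406 and 381 CPM in the KO libraries, against 169 and 188 CPM in Control (0.96 ± 0.24 on the log2 scale, adjusted p = 0.058), with no overlap. Gzmc lay the other way, at 24.8 and 24.3 CPM in the KO libraries, against 175 and 42.3 CPM in Control (-2.002 ± 0.50, adjusted p = 0.058), again with no overlap. Its size rested on Control 1: the difference was -0.94 without Control 1 and -2.97 without Control 2, against Control 1 alone. Without KO 1 it was -2.04. In Control 1 the 30 Gzmc UMIs came from 8 cells, 1 of which held 36.7%. Gzmb was 108 and 277 CPM in the KO libraries, against 128 and 61.1 CPM in Control (1.12 ± 0.34, adjusted p = 0.20). The groups overlapped for it, and the difference was 0.18 without KO 2, 1.54 without KO 1, 1.56 without Control 1 and 0.50 without Control 2.

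Tnfsf10, the death ligand that sets ILC1 apart from conventional NK cells, differed by -0.67 ± 0.29 between KO and Control ILC1 (adjusted p = 0.55 in edgeR's test), with both KO libraries between the Control ones, and by 0.05 without Control 2. Prf1 (0.29 ± 0.31), Fasl (0.06 ± 0.32), Nkg7 (-0.17 ± 0.21) and Srgn (-0.27 ± 0.21) did not pass. The median over the 8 genes was -0.06, against -0.01 over all genes tested. Neutrophil genes in the ILC1 gate summed to 16.6 and 21.9 CPM in the KO libraries, against 105 and 141 CPM in Control, and hepatocyte genes to 182 and 107 CPM in the KO libraries, against 5.83 and 18.8 CPM in Control, and their part was not tested.

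In CD8 effector cells 9 genes passed the filter (Gzmc did not). Of the 9, 0 passed edgeR's test and 0 by DESeq2, where 0.131% of 9155 genes passed in edgeR. At an unadjusted p below 0.05 in edgeR's test were 4 of the 9, beside 1019 of the 9155. Tnfsf10 was 28.7 and 28.3 CPM in the KO libraries, against 35.7 and 70.8 CPM in Control (-1.07 ± 0.28, adjusted p = 0.22). Fasl was 33.7 and 41.0 CPM in the KO libraries, against 57.8 and 57.8 CPM in Control (-0.68 ± 0.17, adjusted p = 0.21). Nkg7 was 889 and 1295 CPM in the KO libraries, against 1425 and 1672 CPM in Control (-0.56 ± 0.20, adjusted p = 0.35). Gzmk, at the levels given above, differed by -0.93 ± 0.36 (adjusted p = 0.38). For these genes the KO libraries lay below the Control libraries, and the share of all genes that did so was not counted. Leaving out Control 1, the shallowest library, the differences were -1.39 for Tnfsf10, -0.69 for Fasl, -0.69 for Nkg7 and -0.71 for Gzmk, against Control 2 alone. Without Control 2, Gzmk was -1.15, Gzmb -0.81 and Tnfsf10 -0.35, against Control 1 alone. Without KO 1, Gzmk was -0.40 and Nkg7 -0.32. Without KO 2, Gzmk was -1.89, Nkg7 -0.82 and Tnfsf10 -1.01. Fasl was -0.56 to -0.80 over all fits that left out a library.

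Gzmb (-0.62 ± 0.33), Gzmm (0.25 ± 0.16), Prf1 (-0.12 ± 0.23) and Srgn (-0.17 ± 0.16) did not pass in CD8 effector cells either. Gzma differed by 0.93 ± 0.57 (adjusted p = 0.59 in edgeR's test), and KO 2 decided it: without KO 2 the difference was -0.86 and without KO 1 it was 1.71. It was 0.85 without Control 1 and 1.03 without Control 2, fits that keep KO 2. The median over the 9 genes was -0.56, against -0.01 over all genes. The haemoglobin genes in this gate summed to 1265 and 29.7 CPM in the KO libraries, against 1404 and 2.80 CPM in Control, and the neutrophil genes to 20.6 and 9.07 CPM in the KO libraries, against 65.2 and 1413 CPM in Control; their part in these values was not tested.

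**Figure D5:**
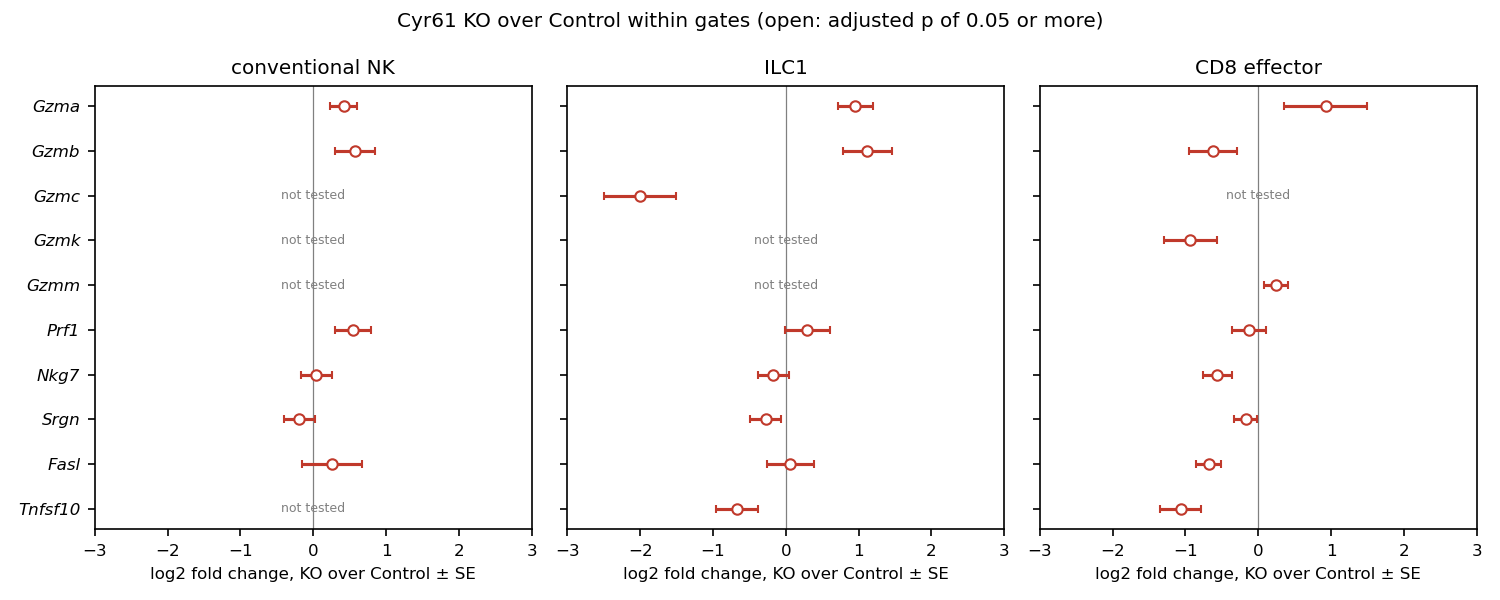
Log2 difference, KO over Control, of each gene tested in conventional NK cells, ILC1 and CD8 effector cells, with bars of 1 SE. None passed an adjusted p of 0.05; the ones nearest were Gzma (0.96) and Gzmc (-2.002) in ILC1, both with an adjusted p of 0.058.

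The NKT-like and pDC gates fell short of 20 cells in Control 1 (9 cells) and KO 1 (13 cells). Fitted all the same, with no minimum of cells, 3 genes were tested in NKT-like cells and 0 passed in edgeR, where 0.262% of 1527 genes passed. At an unadjusted p below 0.05 were 0 of the 3, beside 105 of the 1527. Nkg7 was at 1224 and 875 CPM there in KO, against 765 and 615 CPM in Control (0.60 ± 0.33, adjusted p = 0.78), Gzmb at 169 and 202 CPM in the KO libraries, against 0 and 194 CPM in Control, and Srgn at 1314 and 1233 CPM in the KO libraries, against 1804 and 1348 CPM in Control. Gzma had 43 and 3 UMIs in NKT-like cells of KO 1 and KO 2, against 0 in both Control libraries, and 1 cell held 35 of the 43. In pDC Srgn was the 1 gene tested (0.28 ± 0.25, adjusted p = 0.79), where 0.0532% of 1881 genes passed.

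Whether the KO difference itself differed between gates was tested for 6 pairs of gates. For ILC1 against CD8 effector cells 0.339% of 7380 genes passed, and 1 of the 10 genes did: the KO over Control difference of Gzmb was higher in ILC1 than in CD8 effector cells by 1.62 ± 0.31 on the log2 scale (adjusted p = 0.029 in edgeR's test). For conventional NK against NKT-like cells 0.382% of all genes passed, and 1 of 6 did, Gzma, whose fitted size is not informative because both Control NKT-like sums were at 0. In the other 4 pairs 0 of the 10 genes passed in edgeR, and by DESeq2 0 passed in any of the 6 pairs. Of all genes 0.393% passed in edgeR for conventional NK against CD8 effector cells, 0.0189% for conventional NK cells against ILC1, 0.0249% for ILC1 against NKT-like cells and 0.131% for CD8 effector against NKT-like cells. At an unadjusted p below 0.05 in edgeR's test were, in that order, 3 of 9 beside 545 of all 7636 genes, 1 of 8 beside 279 of 5297, 3 of 8 beside 177 of 4010 and 3 of 9 beside 332 of 6876. Gzmb in conventional NK against CD8 effector cells was 1.18 ± 0.35 (adjusted p = 0.28 in edgeR's test), and it passed in 6 of 15 alternatives. Among them was the fit without the 2 conventional NK and 2 CD8 effector cells of Control 1 that held fibroblast and mesothelial transcripts (1.03, adjusted p = 0.0060). Nkg7 in the same pair was 0.66 ± 0.16 (adjusted p = 0.081) and passed in 7 of 15, with 0.09 under strict gates. Gzma in conventional NK cells against ILC1 differed in its KO effect by -0.57 ± 0.17 (adjusted p = 0.72).

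The rest of the pathway was read from lists of 44 further genes, of which the 39 that no gate used are counted here. Between KO and Control 0 of them passed edgeR's test in any gate (26 tested in conventional NK cells, 26 in ILC1 and 32 in CD8 effector cells). The granule exocytosis and maturation list had a median of -0.01 in conventional NK cells, -0.00 in ILC1 and -0.01 in CD8 effector cells on the log2 scale. Ikzf2, which encodes the transcription factor Helios, differed by 0.89 ± 0.17 between KO and Control CD8 effector cells without passing (adjusted p = 0.13). Lyst, a regulator of lysosome and granule size, differed by 0.58 ± 0.16 there (adjusted p = 0.23).

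Between gates the calls in those lists are read beside 8.75% of all genes tested higher in CD8 effector than in naive-like cells, 9.93% higher and 10.3% lower in conventional NK than in CD8 effector cells, 5.27% higher and 4.06% lower in ILC1 than in conventional NK cells, and 1.92% higher and 3.37% lower in NKT-like than in CD8 effector cells. Of 11 exocytosis and maturation genes tested, 5 were higher in CD8 effector than in naive-like cells, among them Cst7 (1.019 ± 0.15), a cathepsin inhibitor of granules, Ctsw (0.73 ± 0.13), a cathepsin of killer cells, and Stx11 (2.37 ± 0.49), a syntaxin that granule release needs. In conventional NK against CD8 effector cells 3 of 11 were higher, Stx11 (1.69 ± 0.32), Ctsw (0.48 ± 0.12) and Ctsc (0.55 ± 0.15), which encodes the peptidase that matures granzymes, and 1 was lower, Lyst (-0.68 ± 0.19). In ILC1 against conventional NK cells Lyst (1.09 ± 0.20) and Ctsw (0.38 ± 0.11) were higher, of 10 tested. Of the list of inhibitors, the serpin genes Serpinb9 (2.44 ± 0.25), Serpinb6b (1.68 ± 0.20) and Serpinb6a (0.88 ± 0.24) were all higher in CD8 effector than in naive-like cells, 3 of 3 tested. Serpinb9, which blocks Gzmb in the cell that makes it, was also higher in conventional NK than in CD8 effector cells (2.75 ± 0.16), as were Serpinb6b (2.46 ± 0.14) and Serpinb9b (5.55 ± 0.61), and in ILC1 Serpinb9 (-1.39 ± 0.17) and Serpinb6b (-0.68 ± 0.16) were lower than in conventional NK cells, 2 of 2 tested.

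Among the regulators outside the gates, 6 of 7 were higher in CD8 effector than in naive-like cells, among them Ikzf2 (2.79 ± 0.17), Bhlhe40 (2.87 ± 0.20), Tbx21 (3.31 ± 0.24), which encodes T-bet, and Prdm1 (2.98 ± 0.24), which encodes Blimp-1. Of 7 tested in conventional NK against CD8 effector cells, 4 were higher, among them Bhlhe40 (1.81 ± 0.15) and Tbx21 (1.10 ± 0.15), and 2 lower, Ikzf2 (-1.61 ± 0.22) and Runx3 (-0.70 ± 0.13). In ILC1 Ikzf2 (2.40 ± 0.20) and Runx3 (0.47 ± 0.14) were higher, and Prdm1 (-1.48 ± 0.23) and Bhlhe40 (-0.60 ± 0.15) lower, than in conventional NK cells, of 7 tested. The cytokines Ccl3 (2.74 ± 0.16), Ccl4 (1.82 ± 0.14) and Ifng (0.86 ± 0.16) were higher, and Tnf (-1.46 ± 0.22) lower, in conventional NK than in CD8 effector cells, 4 of 4 tested, while in ILC1 Tnf was higher (1.88 ± 0.25), and Ccl3 (-0.84 ± 0.13) and Ccl4 (-0.30 ± 0.08) lower, than in conventional NK cells, of 4 tested. On the receptor side, Fas was lower in CD8 effector than in naive-like cells (-0.58 ± 0.20, 1 of 4 tested), and lower in conventional NK than in CD8 effector cells (-1.21 ± 0.37, 1 of 3 tested). NKT-like cells had lower Cst7 (-1.66 ± 0.36), Ccl3 (-2.65 ± 0.42) and Ccl4 (-2.08 ± 0.25), and higher Lyst (1.20 ± 0.27) and Bhlhe40 (1.11 ± 0.26), than CD8 effector cells, of 26 tested.

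Over the 28 sums of 7 gates by 4 libraries, which share libraries and so are not independent, the genes whose log2(CPM + 10) followed each pattern most closely were taken among 5519 genes with a mean of at least 20 CPM. For Gzma they were Itga2 (Pearson's r = 0.918), Klra7 (0.904) and H2afz (0.897), and for Prf1 Il18rap (0.928), H2afz (0.911) and Klra7 (0.906). For Gzmb they were Serpinb9 (0.936), Ifng (0.931) and Klra9 (0.916). For Nkg7 they were Ctsw (0.971), AW112010 (0.967) and Il2rb (0.966), and for Tnfsf10 Rsad2 (0.769), Tcrg-C4 (0.754) and Cd200r1 (0.751). Itga2, Il2rb and Cd200r1 are gate markers.

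Summed over all kept cells, in which the number of cells of a type and the level in each cannot be told apart, Gzma was at 484 and 599 CPM in the KO libraries, against 170 and 150 CPM in Control. Gzmb was at 71.5 and 96.6 CPM in the KO libraries, against 49.8 and 39.3 CPM in Control, and Prf1 at 51.4 and 59.99 CPM in the KO libraries, against 20.2 and 29.9 CPM in Control. Gzmk lay the other way, at 7.90 and 18.7 CPM in the KO libraries, against 31.2 and 30.8 CPM in Control. The conventional NK gate held 56.0% and 54.7% of the Gzma UMIs in KO, against 36.1% and 43.7% in Control, and the CD8 effector gate held 51.6% and 84.7% of the Gzmk UMIs in KO, against 55.2% and 54.8% in Control. For Prf1 the conventional NK gate held 375 of 794 and 460 of 964 UMIs in KO, against 31 of 155 and 109 of 559 in Control. Exact 95% intervals reached at most 9.22 points from the printed shares. These sums were not tested.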

How the data were processed

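The deposited files hold raw counts of UMIs for each gene in each barcode. Cell Ranger 3.1.0 and the build mm10 are named in the submitters' processing notes. Per the labels' protocols, livers were frozen in serum with DMSO, thawed, digested and passed over a dead cell removal column, which can change which cells are recovered. No cell type annotation was used.

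Cells were kept with at least 500 UMIs, 250 genes and at most 25% mitochondrial UMIs. In every library the highest Scrublet scores (scanpy 1.11.5) were removed at 0.8% per 1000 barcodes. Gates were marker rules on UMI sums, with a cell in the first gate it met. UMIs were summed per library and gate (CPM scales each sum to 1000000) and all genes were fitted with edgeR 4.0.16 (TMM, filterByExpr, glmQLFit, glmQLFTest, Benjamini-Hochberg adjusted p below 0.05), with DESeq2 1.42.0 as an alternative. Fitted log2 differences use TMM library sizes and so differ from CPM ratios. KO fits needed 20 cells in each library; fits between gates and of the KO effect between gates had no minimum. SE is the log2 difference over the square root of F. The fitting was tested on simulated counts.

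Members, lists and tests were chosen with earlier results of these data known. All 10 genes are named, and of each list at most 4 that passed per comparison, by smallest p, with up to 2 that did not. Gate markers in the lists (Eomes, Zeb2, Id2, Ccl5 and Xcl1) were left out. In the CD8 effector and B gates, the only ones checked, replicate libraries differed beyond sampling noise (5.5 to 7.89 times the chi-squared that sampling alone gives). Of 32285 gene IDs, 99.6% matched GENCODE M21. Alternatives changed the size factors, the filter, the tool, the cell filters, doublets, gates, block and libraries; those on cells with Lyz2, fibroblast and mesothelial or Ncr1 transcripts, and on the minimum of cells, were chosen after seeing the data.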

Additional observations from a re-analysis of the deposited data

Results flagged for a closer look

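The KO over Control difference of Gzmb was higher in ILC1 than in CD8 effector cells by 1.62 ± 0.31 on the log2 scale (adjusted p = 0.029 in edgeR's test of the interaction), so a test of the difference between the effects of 2 gates passed. It did not pass by DESeq2, which gave Gzmb no adjusted p here and is not among the 14 alternatives counted below. Gzmb was at 108 and 277 CPM in KO ILC1, against 128 and 61.1 CPM in Control ILC1, and at 55.3 and 138 CPM in KO CD8 effector cells, against 169 and 124 CPM in Control CD8 effector cells. It was 1.57 without KO 2 (adjusted p = 0.086), 1.28 without Control 2 (adjusted p = 0.24) and 0.71 with strict gates (adjusted p = 1), and passed in 11 of 14 alternatives.

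The KO over Control difference of Gzma was lower in conventional NK than in NKT-like cells, with a fitted value of -7.55 for the difference between them (adjusted p = 0.036 in edgeR's test of the interaction). The NKT-like sums held 43 and 3 Gzma UMIs in KO, against 0 and 0 in Control, with 81.4% of the 43 in 1 cell, so the fitted size is no bound. It was -3.81 without KO 1 (adjusted p = 1) and passed in 6 of 15 alternatives.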

How the results depend on the processing

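The number of the 10 genes that passed held within 1.5 times for ILC1 over conventional NK (6, with 6 to 7 leaving out a library), CD8 effector over naive-like CD8 (9, with 8 to 9) and conventional NK over CD8 effector (7, with 6 to 8). NKT-like over CD8 effector passed 4, but 2 by DESeq2 and 2 to 4 leaving out a library (2 without KO 2). pDC over B passed 0, but 1 with no filter and 0 to 1 leaving out a library. For KO over Control in conventional NK the count was 0, and 0 to 2 leaving out a library (2 without Control 2). In ILC1 it was 0, but 1 with no filter, 1 with at least 1000 UMIs, 1 with doublets kept, 1 without Lyz2 cells, 2 with at most 10% mitochondrial UMIs, 3 with T marker sums up to 1, and 0 to 2 leaving out a library (2 without KO 1, 1 without either Control library). Gzma in ILC1 passed in 4 of 16 alternatives (0.90 to 1.30), Gzmc in 7 of 13 and Gzmb in 5 of 16. In CD8 effector cells it was 0, but 3 with no filter and 0 to 5 leaving out a library (5 without Control 1, 3 without Control 2). For the KO effect between gates it was 2, but 1 with RLE size factors, 0 by DESeq2, 5 with T marker sums up to 1, 1 without Lyz2 cells and 2 to 7 leaving out a library (7 without KO 2, 4 without either Control library). 1 value reversed: the KO effect of Gzma in conventional NK minus CD8 effector cells was -0.08, and -1.29 to 1.40 leaving out a library (1.40 without KO 2, -1.29 without KO 1). Sign changes of values that passed in neither setting are not counted as reversals. The share of all genes that passed under each alternative was not counted, so these counts show no excess for the 10 genes. In KO over Control fits that leave out a library, a group is a single library. The cause of these moves was not tested.

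With the replicate number as a block (replicate block), 3 of the 10 genes passed in ILC1 (Gzma, Gzmb and Gzmc) and 5 in CD8 effector cells (Gzmb, Gzmk, Nkg7, Fasl and Tnfsf10), and 0 in conventional NK cells. The share of all genes that passed with that block was not counted. The labels share only a number: with 2 pairs, the deviations of same-numbered libraries correlated at 0.039, 0.0344 and 0.202 in conventional NK cells, ILC1 and CD8 effector cells. The KO tests planned for NKT-like cells and pDC and their alternatives were not run for lack of cells, and strict gates left too few conventional NK cells. Of 30 shares of cells, 25 moved without thinning. Depth limits the Control 1 gates, with 45 conventional NK and 9 NKT-like cells.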
